A study of Mus musculus with 2 samples.

Results

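The 10 genes described here encode the Hedgehog and bone morphogenetic protein (BMP) signals that pass between bladder epithelium and its stroma: the ligands Shh, Bmp4, Bmp2 and Bmp7, the receptors Ptch1 and Smo with the inhibitor Hhip, and the transcriptional effectors Gli1, Gli2 and Gli3. They were picked by name, by a rule that uses no measured value but with earlier results of these data known, from 21911 protein-coding genes of the GENCODE M21 annotation of mm10. Their chromatin was read from DNase-seq, an assay in which DNase I cuts DNA that nucleosomes leave exposed, on the urinary bladder of B6CASTF1/J males at 36 days of age. The strain is an F1 hybrid of C57BL/6J and CAST/EiJ, and mm10 is a C57BL/6J genome, so reads from CAST/EiJ chromosomes were placed on the other parent's sequence. There was 1 group and no contrast. Its 2 libraries, replicate 1 and replicate 2, were taken to come from separate mice. The labels give them separate biosamples but the same donor identifier.

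Accessible sites were taken within each gene body plus 50 kb on either side. A site is a merged stretch of overlapping peaks and is called shared when both libraries have a peak in it. In these windows the shorter, stricter peak list of each library held 65 peaks in replicate 1 and 84 in replicate 2, which merged into 86 of the 51228 sites of the genome. Of the 86 sites, 51 (59.3%) were shared, against 31612 of all 51228 sites (61.7%).

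In the textbook scheme, a Hedgehog ligand binds Patched at the receiving cell, which frees Smoothened from inhibition and turns the GLI proteins from repressors into activators of genes such as Ptch1, Gli1 and Hhip. In the bladder, Shh made by the urothelium is known to act on GLI in the stroma beneath it, and stromal BMPs signal back to the epithelium. BMPs bind paired serine/threonine kinase receptors and act through SMAD proteins. Neither transcripts nor proteins were measured here, so an accessible site shows open chromatin and not expression.

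The label of the tissue was checked against the starts of marker genes. A start peak is a peak within 500 bases of an annotated start of a gene. In the shorter list such a peak was found for 11 of 13 urothelial markers in both libraries, and for Krt20 in neither. The shares over whole lists were 84.6% for urothelium, 40% for smooth muscle (4 of 10) and 33.3% for fibroblasts (2 of 6), against 56.2% of all protein-coding genes. The smooth muscle markers with such a peak in both libraries were Myh11, Mylk, Smtn and Tpm2, while Acta2, Actg2, Cnn1, Des, Myocd and Tagln had none in either. The fibroblast markers with one were Col1a1 and Pdgfra, and Col1a2, Dcn, Dpt and Lum had none. None of 5 prostate and seminal vesicle markers, 4 hepatocyte markers or 4 neuronal markers had a start peak in the shorter list of either library. In the longer, more permissive list, 13 of 13 urothelial, 6 of 10 smooth muscle and 4 of 6 fibroblast markers had one in both libraries. Those gained were Krt5, Krt20, Acta2, Des, Dcn and Dpt. Among all protein-coding genes that share was 61.3%. No prostate and seminal vesicle or hepatocyte marker had one there. No neuronal marker had one in both libraries, and 2 of 4 had none in either. The tissue was not sorted, so fewer cells of a type and lower accessibility per cell cannot be told apart at any site below. Replicate 1 had 38674 peaks of median height 1.46 and replicate 2 had 47661 of median height 1.15. Heights are the authors' signal values, and their scale is not given in the sources used here.

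Of these 10 genes, 8 were open at a start in each library: Bmp4, Bmp2, Bmp7, Ptch1, Smo, Gli1, Gli2 and Gli3. Among all protein-coding genes the share was 56.2%. Shh and Hhip, a ligand and an inhibitor of that ligand, were the exceptions. With the longer, more permissive list the count was 9 of 10, against 61.3% of all protein-coding genes, Shh being the gene gained. Genes are not replicates, and with 1 group no test was made of this or any other count.

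**Figure D1:**
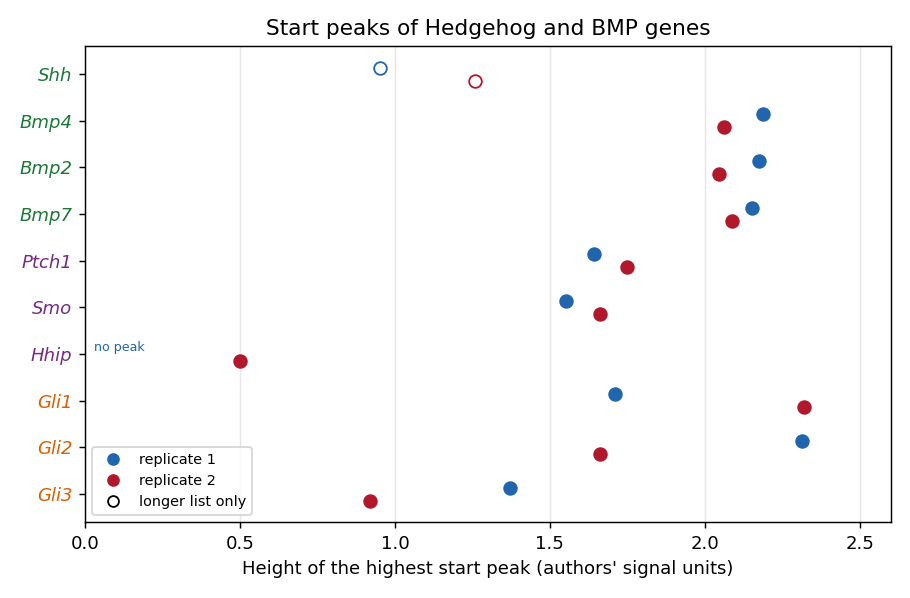
Height of the highest start peak of each gene (signal units of the authors, linear axis) in replicate 1 and replicate 2, with ligands at the top in green, receptors and the inhibitor in purple and effectors in orange. Filled points are peaks of the shorter list and open points are peaks found in the longer list alone. The BMP ligands lie between 2.04 and 2.19 in both libraries, Bmp4 by an internal start, while Hhip has a start peak of 0.5 in replicate 2 alone.

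Shh encodes the Hedgehog ligand that the urothelium secretes. Its single annotated start (chr5:28467256, minus strand) had no peak in the shorter list of either library. In the longer list a peak there reached 0.952 in replicate 1 and 1.26 in replicate 2, with lowest listed FDR values within the start window of 0.000561 and 0.00586. The start was thus open in both libraries, but only the permissive list retained it. Its height was below the median of the shorter list in replicate 1 (1.46) and above that in replicate 2 (1.15).

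Higher peaks lay on either side of Shh. Distances are in kb from the gene start to the middle of the site, negative upstream. The intergenic site at 15.9 kb, beyond the gene end, had a height of 2.19 in replicate 1 and 2.09 in replicate 2. The site at -2.71 kb, within the noncoding genes 9530036O11Rik and Gm26894, had 2.07 in replicate 1 and 2.29 in replicate 2. A further one at -34.0 kb in 9530036O11Rik had 1.41 in replicate 1 and 1.65 in replicate 2. All 3 shared sites of Shh were therefore distal, meaning outside the 500-base window of every annotated start, and all 3 exceeded its start peak in both libraries. At -28.8 kb, a 547-base site of height 1.33 with 8 footprints was found in replicate 2 alone.

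Some Shh enhancers known from mouse brain and gut lie in the long stretch between Shh and Lmbr1, and the limb enhancer lies in an intron of Lmbr1. Upstream of Shh, from its start to Lmbr1, 762.5 kb, there were 7 shared sites in the shorter list and 13 in the longer one. The body of Lmbr1 held 2 shared sites, 1 of them distal. This interval was added after the values had been seen, and its counts have no like interval of other genes beside them.

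Bmp4 encodes a BMP that bladder stroma is known to make. Its shared site, a merged stretch of 314 bases, had a height of 2.19 in replicate 1 and 2.06 in replicate 2. It lay at the start of the internal transcript Bmp4-204 (chr14:46387304), 3.23 kb into the gene. Its height was at the 69.7th percentile of all peaks in replicate 1 and at the 76.0th percentile in replicate 2. In replicate 2 a peak of 1.40 covered the outermost start, at chr14:46390669, and lay within 500 bases of the starts at chr14:46390550 and chr14:46390535, with a lowest FDR of 4.02e-05, and in replicate 1 no base of that site was listed at an FDR up to 0.05. Bmp4 had no shared distal site. A site at -7.83 kb reached 1.33 in replicate 2 alone. In the longer list a site there was shared, with 1.09 in replicate 1 and 1.33 in replicate 2. The internal-start sequence is shown because it is the single Bmp4 site that both libraries share in the shorter list. It comes from the RefSeq FASTA of GRCm38.p6 at chr14:46387294-46387593, minus strand, with capitals for a KLF/SP consensus (GGGCGGG) or an E-box (CAGCTG).
Bmp4 site 1: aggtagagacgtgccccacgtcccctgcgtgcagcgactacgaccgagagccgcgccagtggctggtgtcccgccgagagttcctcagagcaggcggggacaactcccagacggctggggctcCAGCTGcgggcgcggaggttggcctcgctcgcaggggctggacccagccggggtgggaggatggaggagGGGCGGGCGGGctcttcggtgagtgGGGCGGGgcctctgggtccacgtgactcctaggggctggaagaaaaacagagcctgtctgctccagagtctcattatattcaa
The E-box and the separate KLF/SP match each lay in a footprint of both libraries, a footprint being a short protected stretch within an accessible site, extended here by 5 bases on each side for every match. Of the overlapping pair of KLF/SP matches, 1 did so in replicate 1 alone. The capitals mark letters found by search and not bound proteins.

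Bmp2, a second BMP ligand, was open around its start. The start site of 540 bases had a height of 2.18 in replicate 1 and 2.04 in replicate 2, and carried 7 and 6 footprints. A neighbouring start site at 0.722 kb had 1.34 and 0.848. All 6 shared sites lay between -15.1 and 2.72 kb, so nothing shared was found in the rest of the gene or in the 50 kb after it. Of its 4 shared distal sites, the highest by the mean of the libraries was in an exon at 2.23 kb, with 1.51 in replicate 1 and 0.955 in replicate 2. In replicate 2 another exon site, at 2.72 kb, was higher, with 1.12, against 1.09 in replicate 1. The Bmp2 start also had the richest CpG content of the 10 genes, with an observed-to-expected ratio of 1.08 within 500 bases of it, at the 99.7th percentile of protein-coding genes.

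Bmp7, the third BMP ligand, had the most shared distal sites of the 10 genes, 7. Its start site of 640 bases had a height of 2.15 in replicate 1 and 2.09 in replicate 2, and 11 and 9 footprints. The highest site of its window was intergenic, 109 kb from the start and beyond the gene end, at 3.53 in replicate 1 and 2.29 in replicate 2. A neighbour at 108 kb had 2.05 and 1.56. Both were higher in replicate 1, and the 109 kb site was 1 of only 2 among all 27 shared distal sites to differ by more than 1.5 times between the libraries; the other was the Bmp2 exon site at 2.23 kb, also higher in replicate 1. The neighbour held a footprint of 29 bases in replicate 1 and 30 in replicate 2 at nearly the same place, with the letters of a CTCF core (AGGGGGCG) and of a GC-rich SMAD site (GGCGCC). Within the gene, intron sites at 0.960 and 12.4 kb were shared.

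The highest start peaks of the 3 BMP ligands were thus of nearly equal height: 2.19, 2.18 and 2.15 in replicate 1 for Bmp4, Bmp2 and Bmp7, and 2.06, 2.04 and 2.09 in replicate 2. For Bmp4 this was an internal start, and for Bmp2 and Bmp7 the outermost one. The outer starts of Bmp4 had no peak in replicate 1 in either list, and one of 1.40 in replicate 2. The highest start peaks lay at mean percentiles of 72.9 ± 4.45 for Bmp4, 72.6 ± 4.4 for Bmp2 and 72.7 ± 5.22 for Bmp7 among all peaks (SD, n = 2). In this measure the genes did not differ beyond the spread between the libraries.

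Ptch1 encodes the Hedgehog receptor and is itself a target of GLI. Its accessible starts formed a cluster of sites between 7.38 and 10.1 kb from the outermost annotated start, around transcripts that begin from chr13:63563815 to chr13:63565735 on the minus strand. The highest start peak was 1.64 in replicate 1 and 1.75 in replicate 2, at a mean percentile of 63.4 ± 9.71 (SD, n = 2). The outermost starts, at chr13:63573598 and chr13:63573460, had no peak in the shorter list, and in the longer one a peak of 0.930 in replicate 1 alone. The highest peak of the window belonged to the start of A930032L01Rik, a noncoding gene, with 3.50 in replicate 1 and 3.72 in replicate 2. Ptch1 had no shared distal site. All 4 of its shared sites lay within a few kb of each other, and the large downstream part of the gene body had none.

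The upstream end of this cluster is shown because it holds a GLI consensus, TGGGTGGTC, in capitals. The stretch is chr13:63566161-63566460, minus strand, GRCm38.p6.
Ptch1 site 5: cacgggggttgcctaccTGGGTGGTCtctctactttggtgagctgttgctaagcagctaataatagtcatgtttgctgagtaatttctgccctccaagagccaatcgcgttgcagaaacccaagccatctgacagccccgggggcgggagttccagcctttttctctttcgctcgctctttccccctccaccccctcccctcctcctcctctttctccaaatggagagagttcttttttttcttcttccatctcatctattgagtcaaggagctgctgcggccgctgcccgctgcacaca
The consensus begins at base 18 of the printed strand, at chr13:63566435-63566443. It lay inside the peak of replicate 2 but outside that of replicate 1, and in a footprint of neither. A shorter GLI core (GGGTGG) on the opposite strand, from base 188, lay in a footprint of both libraries.

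Smo encodes the membrane protein that Patched holds inactive. Its start had a peak of 1.55 in replicate 1 and 1.66 in replicate 2, at a mean percentile of 60.9 ± 10.3 (SD, n = 2). The start of the neighbouring gene Ahcyl2 was the highest site of the window, with 3.22 and 4.26. Of 6 shared sites 2 were distal: an intron site at 23.2 kb with 1.25 in replicate 1 and 1.54 in replicate 2, and an intergenic site at -16.4 kb with 1.02 and 1.31. Both distal sites were higher in replicate 2, and both were lower than the start peak in each library.

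The site at -16.4 kb was the only one in the 10 windows to hold the GLI consensus within a footprint extended by 5 bases on each side, and without the extension no footprint held it. Its sequence is chr6:29718961-29719180, plus strand, GRCm38.p6, with the GLI consensus TGGGTGGTC and the KLF/SP consensus in capitals.
Smo site 2: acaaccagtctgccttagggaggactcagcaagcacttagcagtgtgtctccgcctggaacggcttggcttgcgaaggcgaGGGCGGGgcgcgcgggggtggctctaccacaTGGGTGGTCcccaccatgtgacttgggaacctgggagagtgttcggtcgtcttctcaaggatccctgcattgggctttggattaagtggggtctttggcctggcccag
The GLI consensus starts at base 113 of this stretch (chr6:29719073-29719081) and lay in an extended footprint in replicate 2 but not in replicate 1. The KLF/SP match at base 82 did so in both libraries.

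Hhip encodes a membrane protein that binds Hedgehog ligands and keeps them from Patched. It was the least accessible of the 10 genes. Replicate 1 had no peak in the window of Hhip. Replicate 2 had 4, of heights between 0.366 and 0.679, including a start peak of 0.5 at the 5.63rd percentile of its peaks. In the longer list 1 site was shared, in an intron at 20.2 kb, with 0.499 in replicate 1 and 0.679 in replicate 2. The start of Hhip was not poor in CpG, with an observed-to-expected ratio of 0.588 against a median of 0.552 over protein-coding genes.

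**Figure D2:**
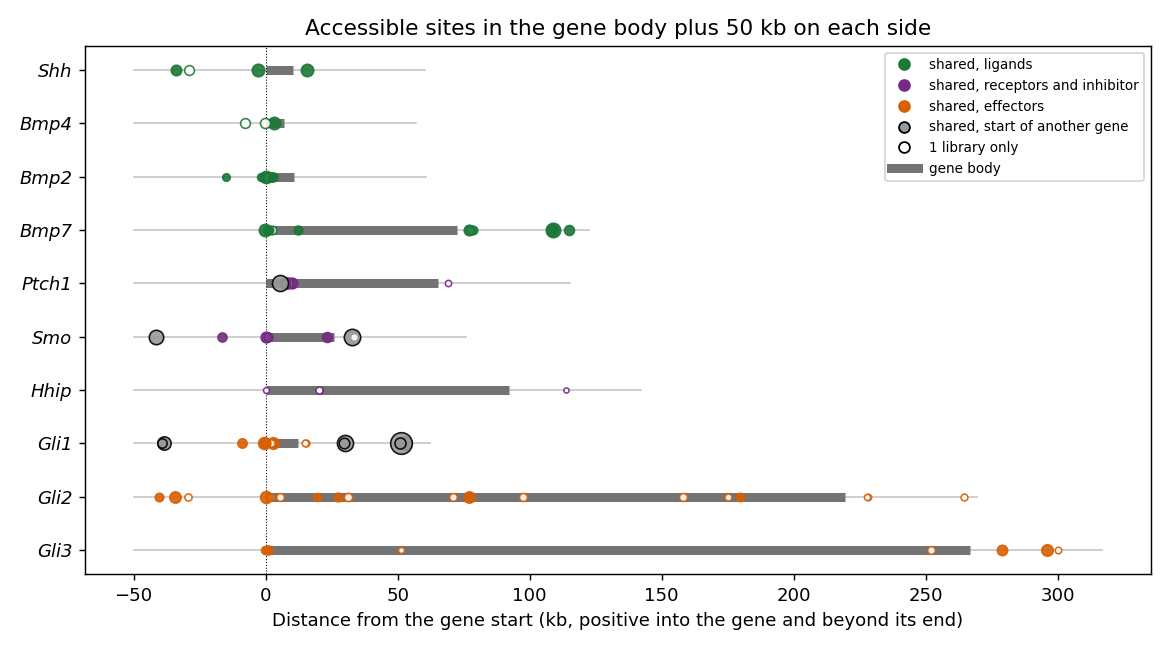
Positions of the 86 sites in the gene body plus 50 kb on each side, as distance from the gene start in kb, with the gene body as a grey bar. Circle area scales with mean peak height, filled circles are shared sites, open circles are sites of 1 library, and filled grey circles with a black edge are shared sites at the start of another gene; Ptch1 and Bmp2 sites crowd near their starts, while those of Bmp7, Gli2 and Gli3 reach over 70 kb into or past the gene.

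Gli1 encodes an activator and is itself a classical target of Hedgehog signalling. Its start had sites at -0.057 kb and -0.507 kb. The site at -0.057 kb had 1.71 in replicate 1 and 1.47 in replicate 2. That at -0.507 kb had 1.61 and 2.32. Which of these was the higher therefore differed between the libraries, and the spread of the start percentile was the widest of the 8 genes (69.2 ± 15, SD, n = 2). An intron site of 540 bases at 2.80 kb had 1.93 in replicate 1 and 1.82 in replicate 2, with 4 and 6 footprints. It was the highest of 3 shared distal sites and, in replicate 1, was higher than the start.

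The window of Gli1 is crowded with other genes. Of its 12 shared sites, 7 were at starts of other genes, the highest at Ddit3, a stress-response transcription factor gene, with 6.46 in replicate 1 and 6.61 in replicate 2. These were the highest peaks in any of the 10 windows. Most shared sites around Gli1 thus belong to starts of its neighbours.

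Gli2 encodes the main activator of the pathway. Its start had 2.31 in replicate 1 and 1.66 in replicate 2, at a mean percentile of 70.1 ± 2.77 (SD, n = 2). The 6 shared distal sites were 4 in introns and 2 upstream. The intron site at 76.9 kb was the highest of them in replicate 2 and the upstream site at -34.1 kb the highest in replicate 1. The intron site had 1.49 in replicate 1 and 2.10 in replicate 2. The upstream site had 2.01 and 1.58, and its single footprint was 41 bases wide in replicate 1 and 39 in replicate 2. A further 9 sites were found in replicate 2 alone, the most of any gene here, with heights of at most 0.938.

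The part of the start site upstream of the transcript, chr1:119053620-119053780, and the intron site, chr1:118976641-118976880, both minus strand in GRCm38.p6, are shown. These are the highest sites at the start and in the introns of Gli2. The upstream site at -34.1 kb, higher than the intron site in replicate 1, is not shown. Capitals mark KLF/SP in the first, and the GLI core (GGGTGG) and AP-1 (TGANTCA) in the second.
Gli2 site 15: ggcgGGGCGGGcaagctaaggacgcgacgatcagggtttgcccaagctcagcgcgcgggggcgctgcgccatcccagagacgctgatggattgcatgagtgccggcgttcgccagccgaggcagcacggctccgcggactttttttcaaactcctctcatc
Gli2 site 8: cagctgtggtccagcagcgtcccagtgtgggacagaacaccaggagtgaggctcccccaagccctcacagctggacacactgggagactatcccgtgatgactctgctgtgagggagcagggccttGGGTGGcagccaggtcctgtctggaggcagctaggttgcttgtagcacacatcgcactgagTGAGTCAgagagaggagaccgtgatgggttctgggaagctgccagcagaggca
In the intron site the GLI core lay in an extended footprint in both libraries, and the AP-1 letters in replicate 2 alone. The KLF/SP letters of the start site lay in a peak of both libraries and in a footprint of neither.

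Gli3 encodes the GLI protein that acts mostly as a repressor. Its start sites were broad and low. The highest start peak was 1.37 in replicate 1 and 0.920 in replicate 2, at a mean percentile of 42.0 ± 6.62 (SD, n = 2), the lowest of the 8 genes open at a start in each library. The merged sites there were 668 and 960 bases long, the longer one being the widest of the 86. No shared site lay in the gene body beyond these. The 2 shared distal sites were past the gene end, at 279 kb with 1.29 in replicate 1 and 1.71 in replicate 2, and at 296 kb with 1.98 and 1.69. In replicate 1 the 296 kb site, and in replicate 2 both, were higher than the start peak.

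Both downstream sequences are given on the plus strand of GRCm38.p6, the first at chr13:15741841-15742080 with TEAD (GGAATG) and E-box letters in capitals, and the second at chr13:15759181-15759420 with capitals for bases that were in a footprint of either library where footprints of both overlapped.
Gli3 site 5: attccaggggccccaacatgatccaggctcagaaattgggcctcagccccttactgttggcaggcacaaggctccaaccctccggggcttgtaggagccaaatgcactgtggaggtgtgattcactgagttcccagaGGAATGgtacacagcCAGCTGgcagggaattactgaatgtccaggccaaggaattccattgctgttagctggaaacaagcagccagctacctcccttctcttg
Gli3 site 6: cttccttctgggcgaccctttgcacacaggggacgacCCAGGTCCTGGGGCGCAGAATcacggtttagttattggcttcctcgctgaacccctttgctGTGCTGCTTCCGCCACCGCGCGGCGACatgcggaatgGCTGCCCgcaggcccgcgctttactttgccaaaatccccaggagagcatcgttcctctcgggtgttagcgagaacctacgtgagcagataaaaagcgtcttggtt
The first site had its E-box in an extended footprint of both libraries and its TEAD letters in replicate 2 alone. All 3 footprints of replicate 1 in the second site overlapped one of the 4 in replicate 2, and none held a searched consensus.

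Set side by side by role, ligands had the most shared distal sites per length. The windows of the 4 ligand genes, 500.6 kb in all, held 14 shared distal sites, or 2.80 per 100 kb. Effectors had 11 in 798.4 kb (1.38 per 100 kb). The receptors and the inhibitor had 2 in 483.3 kb (0.414 per 100 kb). The median over all protein-coding genes was 0.845 and the upper quartile 1.82 per 100 kb. This order of roles also held in each library by itself: counting all its distal peaks, replicate 1 had 3.60 per 100 kb for ligands, 1.63 for effectors and 0.414 for receptors and inhibitor, and replicate 2 had 3.80, 3.26 and 1.45.

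The role means hide unlike genes. Bmp7 had 4.06 shared distal sites per 100 kb, Bmp2 3.61, Shh 2.72, Gli1 2.68 and Gli2 1.88, which are all above the upper quartile of protein-coding genes. Smo had 1.59 and Gli3 0.545. With the longer list Bmp4, Ptch1 and Hhip each had 1 shared distal site, and in the shorter list they had none. So 7 of 10 genes had at least 1 shared distal site, against 64.3% of all protein-coding genes, and the genes of a role differed, from 0 to 7 such sites among ligands, 0 to 2 among the receptors and the inhibitor and 2 to 6 among effectors. With 3 or 4 genes to a role, which are not replicates, the difference between roles was not tested. Distal sites may still lie near a start, as those of Bmp2 at -1.81, 2.23 and 2.72 kb did. A distal site of Gli1, at 52 kb, lay between sites at the starts of other genes. Among peaks at or above the median height of their list, the ligand density was 0.799, the effector density 0.501 and that of the receptors and inhibitor 0, so most of the shared distal sites around the ligands were in the lower part of the height range in at least 1 library.

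**Figure D3:**
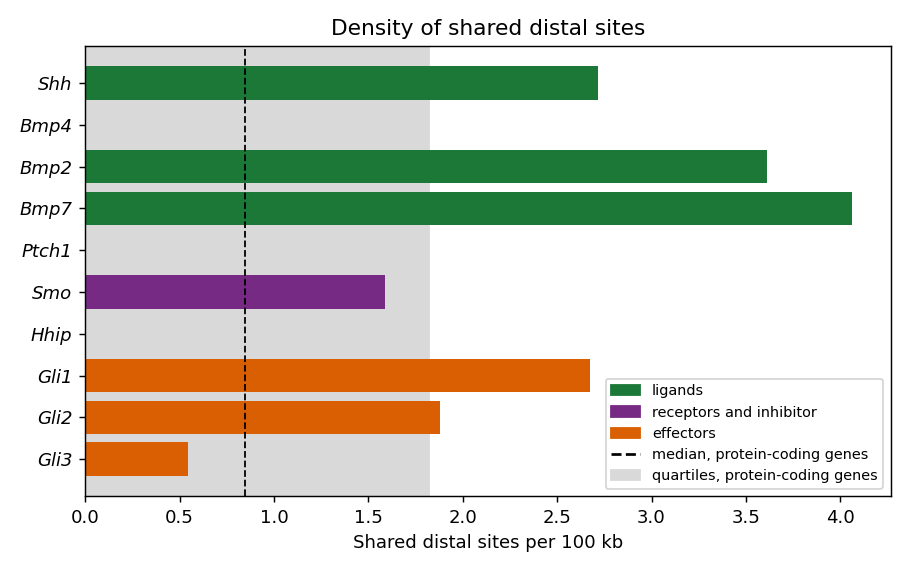
Shared distal sites per 100 kb of window for each gene, coloured by role, with the dashed line at the median of 21911 protein-coding genes (0.845) and the grey band between their quartiles. Bmp7, Bmp2, Shh, Gli1 and Gli2 lie beyond the band, and Bmp4, Ptch1 and Hhip are at 0.

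What the shared sites overlapped also differed between the genes. Of the 51, 14 were at an own start, 10 at the start of another gene, 8 in an own intron, 2 in an own exon, 13 intergenic, 3 within noncoding genes and 1 in the body of another gene. Sites at starts of other genes were the highest, with a median of 2.83 in replicate 1 and 2.68 in replicate 2, against 1.63 and 1.66 for own starts. Own intron sites were shared least often among the larger classes, 8 of 20, and had medians of 1.11 in replicate 1 and 1.20 in replicate 2. Intergenic sites were shared in 13 of 22 cases, with medians of 1.42 and 1.56.

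**Figure D4:**
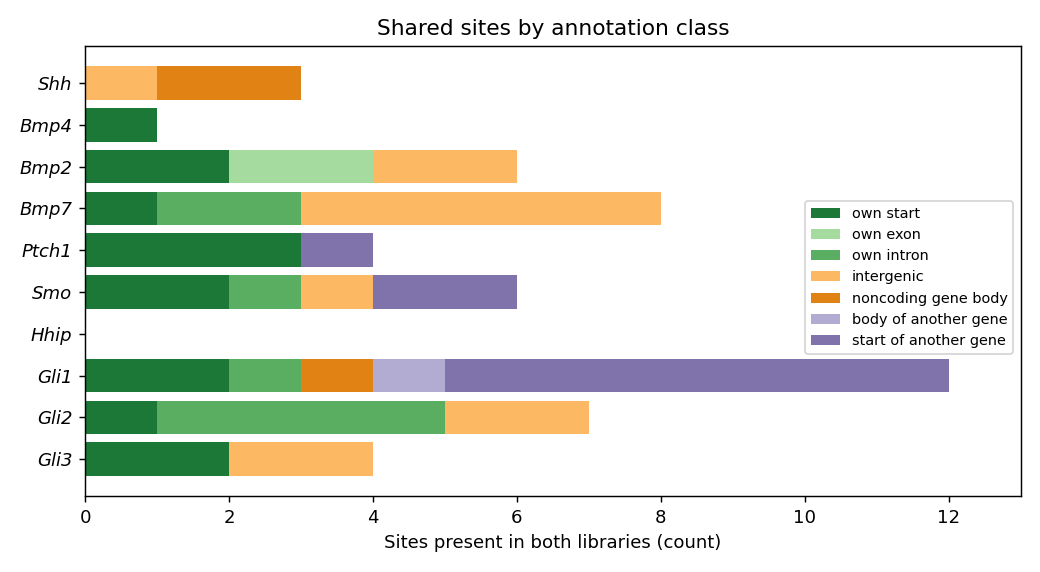
Number of shared sites of each gene by annotation class, with ligands at the top and effectors at the bottom. Starts of other genes supply 7 of the 12 shared sites of Gli1, intergenic sites supply 5 of the 8 of Bmp7, and Hhip has no shared site.

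The libraries were close in height where both had a peak. Over the 51 shared sites the log2 ratio of replicate 2 to replicate 1 had a median of -0.04 and an SD of 0.34, and ranged from -0.80 to 0.53. Over all shared sites of the genome the median was -0.08 and the SD 0.32. Their median heights were 1.51 in replicate 1 and 1.65 in replicate 2, against 1.67 and 1.54 over all shared sites. Sites of 1 library were lower: the median height was 0.992 for the 8 found in replicate 1 alone and 0.723 for the 27 found in replicate 2 alone. Of those 27, 10 overlapped the longer list of replicate 1 and 16 had bases there with a listed FDR. Absence from the shorter list thus often did not mean a complete lack of signal. Effectors supplied 16 of the 27 and receptors with the inhibitor 7, while ligands supplied 4.

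Footprints wholly inside peaks of the 10 windows numbered 165 in replicate 1 and 200 in replicate 2. Per peak there were 2.66 ± 0.131 around ligands, 2.64 ± 0.829 around receptors and the inhibitor and 2.25 ± 0.0675 around effectors (SD over the libraries, n = 2), against 2.54 in replicate 1 and 2.44 in replicate 2 over all peaks. The value for receptors and the inhibitor was 3.23 in replicate 1 and 2.06 in replicate 2, so its distance from either other role is within the spread between libraries. In shared sites, 76 of 158 footprints of replicate 1 (48.1%) overlapped a footprint of replicate 2, and 76 of 162 the other way (46.9%). Over the genome these shares were 58.0% and 55.0%.

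The letters of 17 consensus sequences were searched on both strands of each footprint, extended by 5 bases on each side. The GLI core GGGTGG, which lies within the longer GLI consensus, was in 8 of 165 member footprints of replicate 1 (4.85%) and 11 of 200 of replicate 2 (5.5%), against 3.51% and 3.54% of all footprints in peaks. In both libraries some of these lay at starts of other genes, Ahcyl2 in the window of Smo and Ddit3 in that of Gli1. The higher share is thus not one of the members' own sites alone. The full TGGGTGGTC was in 1 of 65 member peaks in replicate 1 and 2 of 84 in replicate 2 (1.54% and 2.38%), against 0.181% and 0.147% of all peaks, and these are the Smo and Ptch1 sites printed above. With 1 or 2 peaks, such shares rest on single sequences. KLF/SP letters were the most frequent in member footprints of replicate 1, at 7.88%, and level with the GLI core in replicate 2, at 5.5%, against 8.27% and 7.11% overall. AP-1 letters were in 2 of 165 and 4 of 200 member footprints (1.21% and 2%), against 0.557% and 1.12% of all. Those of replicate 1 lay at the starts of Ahcyl2 and Ddit3. Those of replicate 2 lay at the start of Ahcyl2 and in the windows of Gli2 and Gli3.

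No member footprint of either library held the SMAD palindrome GTCTAGAC or the SRF CArG box. The same was true of AGATAA, searched for the zinc finger family of Gata3, of TGTTTAC for forkhead factors, of TGTGGTT for RUNX, of AACNGGTT for GRHL and of CCATAAA for HOX proteins. Over all footprints these were rare too, each at most 0.348%. E-box letters were in 2.42% and 2.5% of member footprints, against 1.51% and 1.61%. The GC-rich SMAD site was in 1.21% and 0.5%, against 3.21% and 2.63%. CTCF core letters were in 1.21% of member footprints in replicate 1 and 0.5% in replicate 2, against 2.56% and 2.11% of all. ETS letters (CCGGAAG) were in 1.21% and 1%, against 1.27% and 1.15%, and NFI letters (TTGGCA) in 0.606% and 0.5%, against 1.21% and 1.47%. TEAD letters were in 0% and 0.5%, against 0.731% and 0.879%. RefSeq promoters of GRCm38.p6, from 250 bases before to 50 after a start, matched 6 of the 10 genes by symbol, and those of Smo, Hhip, Gli2 and Gli3 held the GLI core. Of all 32851 promoters of this length 31.5% held the core, and 0.253% the full consensus, which none of the 6 held.

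Beyond these genes, start peaks were counted in 4 further lists of pathway genes. Of 24 other Hedgehog pathway genes, 20 (83.3%) were open at a start in each library. The highest were Gsk3b, a kinase that phosphorylates GLI proteins, Sufu, which retains GLI in the cytoplasm, and Csnk1a1, another GLI kinase, at mean percentiles of 97.1, 96.9 and 92.2. Those with none in either library were Dhh and Ihh, the other Hedgehog ligands, and Scube2, which helps release them. With the longer list Scube2 had a start peak in both libraries, while Dhh and Ihh did not. No Hedgehog ligand gene, Shh included, had a start peak in the shorter list. Gsk3b and Csnk1a1 also serve other pathways, Wnt signalling among them.

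Of 10 known Hedgehog targets, 5 (50%) had a start peak in both libraries. The highest were Ccnd1, a cyclin of the cell cycle, at a mean percentile of 88.6, Snai1, a transcriptional repressor, at 83.2, and Wnt4, a secreted Wnt ligand, at 69.4. Foxl1, a forkhead gene known from gut mesenchyme, and Nkx2-2, a homeobox gene known from the neural tube, had none in either library.

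Of 31 other BMP pathway genes, 18 (58.1%) were open at a start in each library. The decoy receptor gene Bambi, the common mediator Smad4 and the BMP-binding protein gene Twsg1 were the highest, at mean percentiles of 96.9, 94.4 and 93.7. A start peak in neither library was found for 7, among them the ligands Bmp5 and Gdf10 and the antagonist Chrdl1. With the longer list Chrdl1 had one in both libraries, while Bmp5 and Gdf10 did not. Of 8 BMP targets, 7 (87.5%) had one in both libraries, led by Id2 (95.9), Id3 (90.7) and Hey1 (90.0), which encode transcriptional regulators of the helix-loop-helix class. Sp7, an osteoblast factor, had none. Set against the 56.2% of all protein-coding genes in the shorter list, the Hedgehog list and the BMP targets were above it, and the BMP list and the Hedgehog targets close to it or below. With the longer list the share of all protein-coding genes was 61.3%. There the counts were 22 of 24 for the Hedgehog list and 7 of 8 for the BMP targets. The BMP list, at 24 of 31, was then above the share too, and the Hedgehog targets, at 6 of 10, were close to it.

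**Figure D5:**
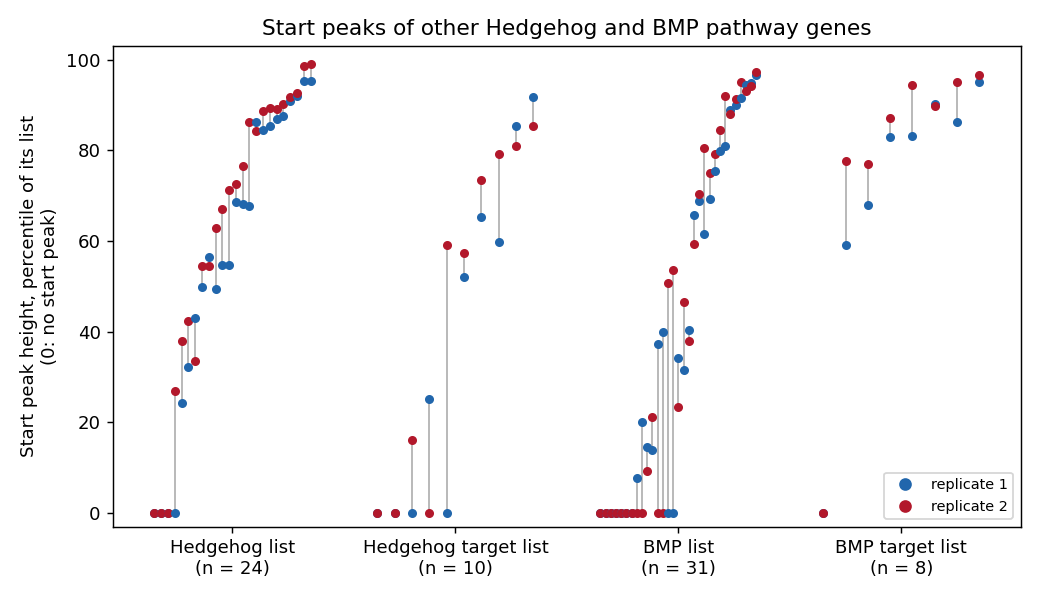
Percentile of each pathway gene's highest start peak among all peaks of its library, in replicate 1 and replicate 2, with 0 for genes with no start peak. Within each list genes are ordered by their mean, and a grey line joins the libraries; 3 genes of the Hedgehog list, 2 of the Hedgehog target list, 7 of the BMP list and 1 of the BMP target list are at 0 in both.

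The stretch between the nearest protein-coding neighbours that do not overlap a gene was a description added after the values had been seen. It is longer than the window of each gene except Gli1 and Smo, for which it is shorter. Hhip had 1 shared site in 714.7 kb (0.14 per 100 kb) and Gli3 5 in 1338 kb (0.374). Bmp2 had 13 in 1551 kb (0.838) and Bmp4 15 in 1102 kb (1.36). Of these 15, 1 lay in the 50 kb window of Bmp4 and 14 at greater distance. Shh had 8 in 776.8 kb (1.03). Windows of the gene body plus 50 kb on each side had a median of 2.50 shared sites per 100 kb over protein-coding genes. Those windows may hold starts of neighbours. Of the 10 genes, Gli1 (13.5), Smo (8.09) and Bmp7 (2.62) were above this median and the others below. For Gli1 this was 5 shared sites in 37.1 kb, and for Smo 4 in 49.5 kb. Their windows were 112.1 and 125.9 kb long. For Bmp7 it was 11 in 419.1 kb. Which gene any of these distant sites acts on was not measured.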

How the data were processed

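DNase-seq was measured in 2 bladder libraries, and each list was made for each library by itself on mm10, per the text deposited with it. Which aligner and callers were used is not given in the sources used here. For each peak the authors deposited a peak height, a signal whose scale is not stated. Heights come in whole steps of 0.0113 in replicate 1 and 0.00893 in replicate 2 (100% of low heights within 0.05 of a step), a ratio of 1.27, and the depth in reads is unknown. The FDR values, adjusted p-values for stretches of bases, were listed by the authors up to 0.05. Each deposited footprint carries 0.01, which is either a p-value or an FDR limit and gives no strength. The lowest FDR within a site of the gene windows was at most 0.000613 in the shorter list and at most 0.0402 in the longer one.

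Sites were made with Python 3.11.15 and numpy 2.4.6 from peaks overlapping by at least 1 base, and placed on GENCODE M21 (141767 starts), whose coordinates are those of mm10. Sequences came from GRCm38.p6. Percentiles are ranks by height among all peaks of a library's shorter list. The counting was tested on simulated data. With 1 group there was no test. Alternatives were another list, flank, start window, overlap, stronger peaks, footprint rules and leaving out each library. Genes and lists were chosen with earlier results of these data known. Named pathway genes are the up to 3 highest by mean percentile and up to 3 without a start peak in either library, by alphabet, of each list; named sites are the highest shared and highest shared distal site of each gene and those holding the GLI consensus, and other sites named were chosen after their values were seen. Named neighbours are those whose start is the highest site of a window.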

Additional observations from a re-analysis of the deposited data

How the results depend on the processing

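No paired analysis was possible because there was 1 group. Under the alternatives, 114 values of the main results moved by less than the spread between libraries or, for counts, by at most 1.5 times, and 30 moved further. The 51 shared sites became 32 with flanks of 10 kb and 26 with peaks at or above the median height of their list. With each library left out in turn, all sites of the other were counted, which gave 62 to 83. No sharing was required there, so site counts and densities with 1 library are by design not lower and do not test the shared values. Overlapping peaks were merged for them, while the densities of each library given above count peaks singly. The ligand density of 2.80 shared distal sites per 100 kb became 3.60 with the longer list, 4.98 with 10 kb flanks, 2.11 with 100 kb flanks, 0.799 with those higher peaks and 2.6 at 50% overlap, and 3.40 to 3.80 with 1 library. The effector density of 1.38 became 2.76 with the longer list and 1.63 to 3.26 with 1 library. That of receptors and inhibitor, 0.414, became 0.414 to 1.45 with 1 library. The order of roles was the same in these settings. Footprints per peak became 2.19 for ligands and 1.99 for effectors with the longer list.

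Without extension of the footprints, the mean share with a consensus became 2.77% for the GLI core, 1% for AP-1, 3.82% for KLF/SP, 0.856% for ETS, 0.303% for NFI and 1.66% for the E-box, and 0 for the full GLI consensus and TEAD, each at 0.25% before. With an extension of 10 bases it became 7.03% for the GLI core, 1.91% for the SMAD GC site, 3.27% for AP-1, 1.66% for TEAD, 0.856% for NFI and 2.77% for the E-box, and 0.25% for GATA, GRHL and the SRF CArG box, which were at 0 before. The causes were not tested.

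Depth in reads is unknown, and a missing peak in 1 library does not show that signal was absent there. A site 32.6 kb from the Smo start, at the start of Ahcyl2, was listed in replicate 1 alone. In replicate 2 the lowest FDR within it was 4.89e-28, and a shared site began at the next base. Replicate 2 had more peaks than replicate 1, and the 27 sites it alone held were low.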
